A study of Mus musculus with 4 samples.

Results

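The genes of the insulin-like growth factor (IGF) ligand Igf1, its receptor Igf1r and the binding proteins Igfbp1 to Igfbp7 were examined for sites of transcription initiation in liver and yolk sac of mouse embryos. The 9 genes were taken by name out of 21951 protein-coding genes of the GENCODE M21 annotation of GRCm38. The series holds 4 PRO-seq libraries, 2 from liver and 2 from yolk sac, all of E14.5 embryos. PRO-seq extends the nascent RNA of engaged RNA polymerases, and it was run here on chromatin from tissue of 6 pooled embryos per library. C57BL/6J mothers had been mated to fathers of mixed C57BL/6J and CAST/EiJ descent that carried no other alleles than CAST/EiJ at the Dlk1/Gtl2 locus, in both tissues alike. The sample labels write the background as C57BL/6h and CAST/EiJ. No genetic change or treatment is named. The values are dREG peaks, intervals classed as transcription start regions, with 1 list per library. Nothing in the labels says whether the 2 libraries of a tissue came from separate pools, so the spread between them may be technical.

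Insulin-like growth factors drive growth of the embryo through the receptor tyrosine kinase Igf1r, which binds both Igf1 and Igf2. In tissue fluid and blood the factors are held by binding proteins, which prolong their life, keep them from the receptor or carry them to the cell surface and matrix. Proteases that cleave the binding proteins release the factors. The adult liver is the main source of circulating Igf1, while before birth Igf1 is made by many tissues and Igf2 is the more abundant ligand. The yolk sac of the mouse has an outer layer of visceral endoderm, which shares many secreted proteins with hepatocytes, and an inner mesoderm with blood vessels. The fetal liver at this stage is a site of red cell formation.

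Promoter sequences are shown for 4 binding protein genes that represent the patterns described below: Igfbp1 and Igfbp3 had a promoter peak in all 4 libraries, Igfbp7 in all but liver replicate 1, and Igfbp6 in none. Each sequence is the 250 bases before the RefSeq start on the gene's own strand, from GRCm38.p6. They lie at chr11:7197537-7197786 (plus strand, Igfbp1), chr11:7213924-7214173 (minus strand, Igfbp3), chr15:102143936-102144185 (plus strand, Igfbp6) and chr5:77408046-77408295 (minus strand, Igfbp7). Capitals mark matches, on either strand, to the TATA box TATAAA, the GC box GGGCGG, the insulin response element core CAAAACA, the CCAAT box and the GATA motif AGATAA. The matches do not overlap each other.
Igfbp1: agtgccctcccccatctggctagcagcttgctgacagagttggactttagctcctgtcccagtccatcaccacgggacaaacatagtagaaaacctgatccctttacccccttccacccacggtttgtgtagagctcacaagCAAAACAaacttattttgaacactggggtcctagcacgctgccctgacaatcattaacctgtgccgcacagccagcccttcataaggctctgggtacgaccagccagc
Igfbp3: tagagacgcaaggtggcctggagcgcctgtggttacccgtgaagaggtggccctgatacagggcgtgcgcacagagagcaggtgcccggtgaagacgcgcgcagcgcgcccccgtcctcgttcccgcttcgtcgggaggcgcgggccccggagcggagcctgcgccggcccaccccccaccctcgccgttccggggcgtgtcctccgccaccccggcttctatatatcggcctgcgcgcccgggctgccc
Igfbp6: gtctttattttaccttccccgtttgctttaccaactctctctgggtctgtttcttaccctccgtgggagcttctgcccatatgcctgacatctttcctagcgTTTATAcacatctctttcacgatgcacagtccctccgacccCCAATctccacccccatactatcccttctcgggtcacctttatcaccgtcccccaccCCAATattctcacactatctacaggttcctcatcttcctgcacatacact
Igfbp7: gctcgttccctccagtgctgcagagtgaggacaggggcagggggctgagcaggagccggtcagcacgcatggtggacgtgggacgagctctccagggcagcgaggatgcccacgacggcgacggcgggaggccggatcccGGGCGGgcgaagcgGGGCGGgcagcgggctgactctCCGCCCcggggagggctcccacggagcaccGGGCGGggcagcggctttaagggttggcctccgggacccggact
Igfbp1 held CAAAACA beginning 108 bases before the start, a motif found in 5.56% of the 32851 promoters in the table. Igfbp7 held 4 matches to GGGCGG, which occurred in 32.7% of promoters, and Igfbp3 held none of the 5 motifs. Igfbp6 held TATAAA, on the minus strand 148 bases before the start, and 2 matches to CCAAT. These motifs were found in 12.4% and 33.8% of promoters. Among the remaining members, Igfbp4 had TATAAA beginning 28 bases before its start. Igfbp2 had 3 and Igf1r 2 matches to GGGCGG, and Igf1 had 1 to CCAAT. All 250 bases of the Igf1 window lay in annotated exons, downstream of the outermost annotated start of the gene. The 10 RefSeq starts of the 9 genes included 2 of Igfbp2, and the second of these and the Igfbp5 start held no match. AGATAA, found in 9.99% of promoters, was in none of the 10 windows. CpG dinucleotides numbered 42 in the window of Igf1r, 32 in Igfbp3, 26 in Igfbp7 and 22 in Igfbp4, against a median of 6 over all promoters. Igf1, Igfbp1 and Igfbp6 held 5, 5 and 7. In the 2 yolk sac lists the Igfbp1, Igfbp3 and Igfbp7 sequences lay wholly inside a peak. The Igfbp1 sequence did so in both liver lists as well. The Igfbp7 sequence had 0 bases in a peak in liver replicate 1 and all 250 in liver replicate 2, and the Igfbp3 sequence had 250 and 179.

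List length was 24863 and 24333 peaks for the liver libraries, and 50525 and 43055 for yolk sac, and the reads behind them are unknown. A longer list gives more peaks near any gene. Promoter calls, peak counts and regions are therefore given also for the 24333 highest-scoring peaks of each list, called equal list length below. Single values were tested between tissues by exact two-sided permutation over the 6 assignments of libraries, whose smallest possible p is 0.333, so no difference could pass a conventional threshold. Among markers of cell types, 8 of 8 erythroid genes in the annotation had promoter peaks in both liver lists and 3 in each yolk sac list, where Gata1, Klf1, Alas2, Slc4a1 and Hemgn had none. Of 11 hepatocyte genes, 9 and 8 had them in liver and 9 and 9 in yolk sac, with Fgb called in yolk sac only, Cps1 in liver only and Serpina1a in no library. Of 10 yolk sac endoderm genes, 7 and 4 had them in liver and 9 and 9 in yolk sac, with Rhox5 called in no library and Cubn and Amn in neither liver library. The liver replicates differed at mesenchymal genes, of which 5 of 10 had a promoter peak in liver replicate 1, 9 in liver replicate 2 and 10 and 10 in yolk sac. Endothelial genes gave 5 and 6 in liver and 8 and 8 in yolk sac of 8, and macrophage genes 4 and 4 against 6 and 5 of 6. At equal list length the liver counts of these 6 lists were the same. In yolk sac the erythroid counts stayed at 3 and 3, the mesenchymal counts were 9 and 10, the endoderm counts 8 and 8 and the endothelial counts 7 and 7. The hepatocyte counts were then 3 and 4 and the macrophage counts 2 and 2, below those of liver.

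Promoter peaks, counted when a peak overlapped 500 bp either side of an annotated start of the gene, were found at 4 of the 9 genes in liver replicate 1, at 8 in liver replicate 2 and at 8 in either yolk sac library. Liver had a mean of 6 ± 2.83 members and yolk sac of 8 ± 0 (SD, n = 2), so the means differed by 2 members, less than the SD of the liver libraries. Over all protein-coding genes the share called was 56.1% and 57.9% in liver and 63.8% and 62.4% in yolk sac. When peaks in the lower-scoring 50% of each list were left out, the members called were 3 and 2 in liver and 7 and 5 in yolk sac, which do not overlap and differ by 3.5 in the mean. This filter leaves the yolk sac lists longer than the liver lists. The share of all protein-coding genes called per library was not kept at this setting, so the separation cannot be read as particular to the members. Without liver replicate 1 the difference in the full lists was 0, and without liver replicate 2 it was 4. Igf1r, Igfbp1, Igfbp3 and Igfbp4 had a promoter peak in all 4 lists, as did 53.8% of protein-coding genes. Igfbp6 had one in no list, which held for 34.2%. No member was called in both libraries of 1 tissue alone, against 5.25% of protein-coding genes for yolk sac and 1.01% for liver. At equal list length the members called numbered 4, 8, 7 and 6 (liver replicates 1 and 2, yolk sac replicates 1 and 2). These counts overlapped between tissues, and the shares of protein-coding genes called were 55.9%, 57.9%, 53.2% and 56.6%. The same 4 genes were called in all libraries and Igfbp6 in none, as were 46.7% and 37.4% of protein-coding genes. No member was then confined to a tissue, against 2.61% for yolk sac and 3.01% for liver. In a bulk sample, fewer cells of a type and less transcription per cell cannot be told apart.

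The other 4 genes, Igf1, Igfbp2, Igfbp5 and Igfbp7, lacked a promoter peak in liver replicate 1 and had one in each of the 3 remaining lists. This pattern was found at 2.23% of protein-coding genes, and the reverse for the liver replicates at 0.629%. Of the 10 mesenchymal marker genes, 4 had the same pattern (Hand2, Pdgfra, Dcn and Lum), 5 were called in all 4 libraries (Col1a1, Col1a2, Col3a1, Twist1 and Vim) and Hand1 in yolk sac only. Among the 5, Col3a1 stood higher in liver replicate 1 (61.4) than in liver replicate 2 (10.2), and Twist1 lower (12.9 against 62.3). The endothelial genes Tek and Egfl7 were also missed in liver replicate 1 alone. The endothelial gene Erg was called in all but liver replicate 2. The yolk sac endoderm genes Lrp2, Apoa4 and Afp also had a promoter peak in liver replicate 1 and lacked one in the second. Over all protein-coding genes liver replicate 1 had 12306 and liver replicate 2 12706 promoter calls. The part of cell content and of depth in the difference between the liver libraries was not tested.

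**Figure D1:**
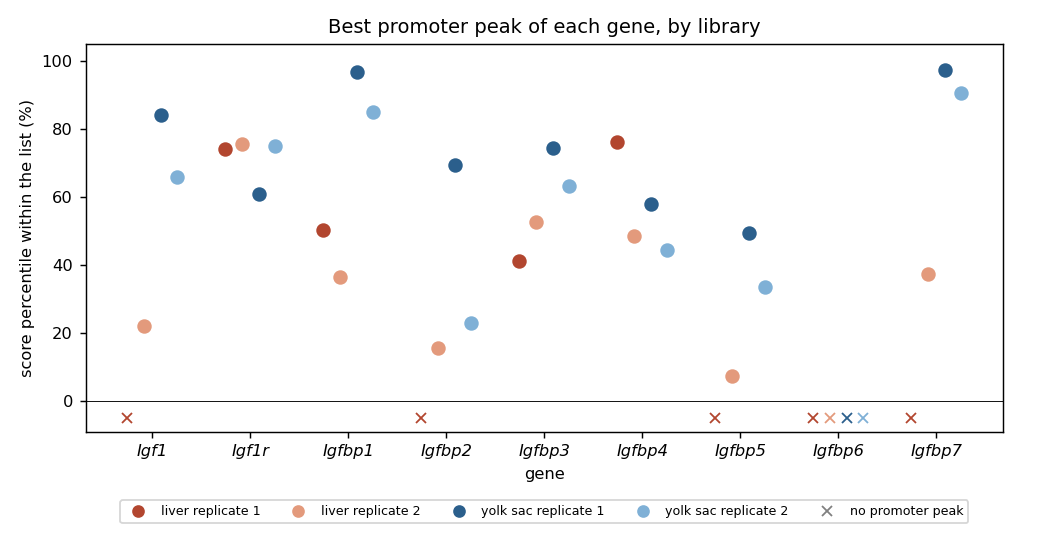
For each of the 9 genes on the horizontal axis, the vertical axis gives the within-list score percentile of its highest-scoring promoter peak, with 1 point per library and a cross below 0 where there was no promoter peak. Igfbp7 and Igfbp1 reached 97.4 and 96.9 in yolk sac replicate 1, Igfbp6 has only crosses, and liver replicate 1 has a cross also at Igf1, Igfbp2, Igfbp5 and Igfbp7.

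The standing of each promoter was read from the percentile of its highest-scoring peak within its own list, the share of that list's peaks with a score at or below it. The lists differ in length, so percentiles describe each list and give no test between tissues. Peaks at annotated starts had a median percentile of 64.3 and 63.3 in liver, and of 67.6 and 68.2 in yolk sac. The receptor gene Igf1r, on chromosome 7 (67952827 to 68233668, plus strand), stood at 74.1 and 75.6 in liver and at 60.9 and 75.0 in yolk sac. Of the 4 values, that of yolk sac replicate 1 lay below the median of its list's peaks at annotated starts. The ligand gene Igf1, on chromosome 10 (87858265 to 87937042, plus strand), stood at 22.0 in liver replicate 2, and in yolk sac at 84.2 and 66.0. In liver replicate 1 the peak nearest to an Igf1 start was 284722 bp away. The yolk sac peaks of Igf1 spanned 2452 and 2502 bp and enclosed 6 of its 8 annotated starts, whereas the 702 bp peak of liver replicate 2 enclosed 1.

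Igfbp1, a binding protein made by hepatocytes and held down by insulin, and Igfbp3, the main carrier of these factors in adult blood, are neighbours on chromosome 11 that point towards each other (7197782 to 7202546 on the plus strand and 7206086 to 7213923 on the minus strand). Their starts are 16.1 kb apart. The Igfbp1 promoter peak reached percentiles of 50.2 and 36.6 in liver and of 96.9 and 84.9 in yolk sac. It ranked 12376th and 15433rd among liver peaks and 1566th and 6509th among yolk sac peaks. The Igfbp3 peak stood at 41.1 and 52.8 in liver and at 74.4 and 63.4 in yolk sac. Both genes thus lay below the median promoter peak of either liver list, and Igfbp1 lay well above it in both yolk sac lists. When the higher-scoring 50% of peaks were taken from each list, the Igfbp1 peak was lost from liver replicate 2 and the Igfbp3 peak from liver replicate 1.

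Igfbp2 and Igfbp5, the second neighbouring pair, lie on chromosome 1 (72824503 to 72852474 on the plus strand and 72857932 to 72874884 on the minus strand), with 5.46 kb between their 3′ ends. Igfbp2 is a main binding protein of fetal serum, and Igfbp5 binds to the extracellular matrix. At Igfbp2 the percentiles were 15.6 in liver replicate 2 and 69.4 and 23.0 in yolk sac. The liver peak (602 bp) ended 151 bp before the first annotated start, and the yolk sac peaks (652 and 252 bp) covered it. At Igfbp5 they were 7.52 in liver replicate 2, where the peak was 102 bp wide, and 49.4 and 33.5 in yolk sac, where the peaks were 1402 and 1202 bp wide. Both genes therefore had low-ranking promoter peaks in every list that held one, other than Igfbp2 in yolk sac replicate 1. At equal list length, Igfbp2 was lost from yolk sac replicate 2 and Igfbp5 from both yolk sac lists, which left Igfbp5 called in liver replicate 2 alone.

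Igfbp7, which binds these factors weakly and is found in the walls of blood vessels, lies on chromosome 5 (77349240 to 77408041, minus strand). Its promoter peak stood at the 97.4 and 90.7 percentiles of the yolk sac lists and at 37.5 in liver replicate 2. In liver replicate 1 the nearest peak was 26410 bp from its start. Igfbp7 had the highest yolk sac percentile of the 9 genes in both replicates. In the higher-scoring 50% of each list, Igf1 and Igfbp7 had a call from each yolk sac library and none from liver, as did 8.84% of protein-coding genes.

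Igfbp4, a binding protein that the protease Pappa cleaves, lies on chromosome 11 (99041244 to 99054392, plus strand) and has 6 annotated starts. Its best promoter peak stood at 76.2 and 48.6 in liver and 58.0 and 44.4 in yolk sac, so the tissues overlapped. Further, lower-scoring peaks lay at its internal starts, so that the promoter peaks numbered 3 and 2 for liver and 2 and 3 for yolk sac. A yolk-sac-only region at chr11:99047151-99047502, in the 14.8 and 11.8 percentiles, lay at the last of these starts. It was in neither yolk sac list at equal list length. Igfbp6, which prefers Igf2 over Igf1, lies on chromosome 15 (102144362 to 102149511, plus strand). None of the 4 lists had a peak within 500 bp of its start, nor one with its midpoint in the gene. The nearest peak began 5039 bp downstream of the start in each list, where it overlapped the 3′ end of Igfbp6 and lay at the promoter of Soat2, a cholesterol esterifying enzyme, where it reached percentiles of 98.8 and 99.8 in yolk sac, and of 68.4 and 94.6 in liver.

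The width of the best promoter peak was compared at the 4 genes called in every library. Igfbp3 peaks were 1002 and 802 bp wide in liver and 3452 and 3252 bp in yolk sac, or 902 ± 141 against 3352 ± 141 bp (SD, n = 2), a 3.72-fold difference. In both yolk sac lists the peak reached 2572 bp into the gene, and in the liver lists 322 and 622 bp. At Igf1r the widths were 3452 and 2852 bp in liver and 4452 and 3952 bp in yolk sac. At Igfbp1 they were 1952 and 2102 bp against 2452 and 2352 bp, and at Igfbp4 1952 and 1852 bp against 3502 and 2002 bp. The tissues did not overlap at any of the 4 genes, and yolk sac was wider each time, as at 34.5% of the 11805 protein-coding genes called in all 4 libraries. Liver was wider at 20.9%. The exact permutation p was 0.333 at each of the 4 genes, and 0.601 after Benjamini-Hochberg adjustment over these 11805 genes. At Igfbp4 the gap between the tissues was 50 bp, and the mean difference of 850 bp came to 100 bp without yolk sac replicate 1. Median widths of peaks at annotated starts were 1552 and 1402 bp in liver and 1552 and 1452 bp in yolk sac.

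**Figure D2:**
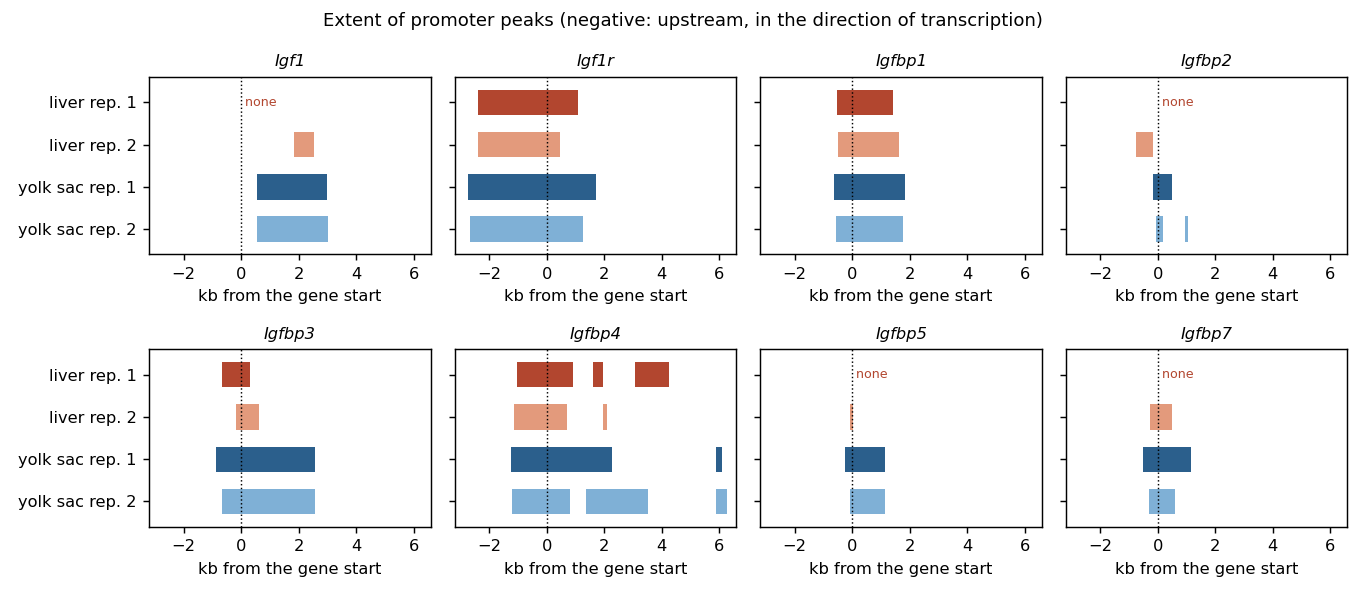
Each bar is 1 promoter peak, drawn from its upstream to its downstream edge in kb from the outermost annotated start of the gene, with 1 row per library. The Igfbp3 bars reach 2572 bp downstream in both yolk sac libraries and 322 and 622 bp in the liver libraries, and the Igf1 bars lie downstream of the outermost start.

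Peaks were then counted in each gene with 50 kb of flank on either side, which for neighbouring members includes the same sequence. Joined into 7 loci of 1203 kb in all, the counts were 28 and 30 for liver, a mean of 29 ± 1.41, and 59 and 46 for yolk sac, a mean of 52.5 ± 9.19 (SD, n = 2). This 1.81-fold difference was not seen at equal list length, where liver had 26 and 30 and yolk sac 28 and 29. The full lists as a whole held 24863 and 24333 peaks in liver against 50525 and 43055 in yolk sac.

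At Igfbp7 the liver lists had 3 and 3 peaks, the yolk sac lists 8 and 9, and at Igfbp1 5 and 5 against 12 and 9. At Igfbp3, in large part the same window, there were 5 and 4 against 10 and 7. Igfbp5 had 0 and 2 against 8 and 6, and Igfbp2 0 and 3 against 7 and 6. At these 5 genes all yolk sac counts were above all liver counts, as at 56.7% of the 18226 protein-coding genes with a peak in the same window. The reverse was seen at none of the 9 genes and at 6.51% of the 18226. The exact permutation p was 0.333 at each of the 5 genes, and 0.528 after Benjamini-Hochberg adjustment over the 18226 genes. Igf1 had 0 and 1 against 3 and 1 peaks, Igf1r 11 and 10 against 16 and 10, Igfbp4 4 and 4 against 4 and 6, and Igfbp6 5 and 4 against 7 and 4, and these overlapped between tissues.

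At equal list length, Igfbp7 kept 3 and 3 peaks for liver against 4 and 6 for yolk sac, and Igfbp1 5 and 5 against 7 and 6. These genes then lay among 17.4% of protein-coding genes with all yolk sac counts higher. Igfbp2, Igfbp3 and Igfbp5 overlapped between tissues, with 0 and 3 against 2 and 1, 5 and 4 against 6 and 5, and 0 and 2 against 3 and 2. Igfbp4 had 4 and 4 against 2 and 2 and Igfbp6 5 and 4 against 3 and 3, with all liver counts higher, as at 30.9% of protein-coding genes.

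**Figure D3:**
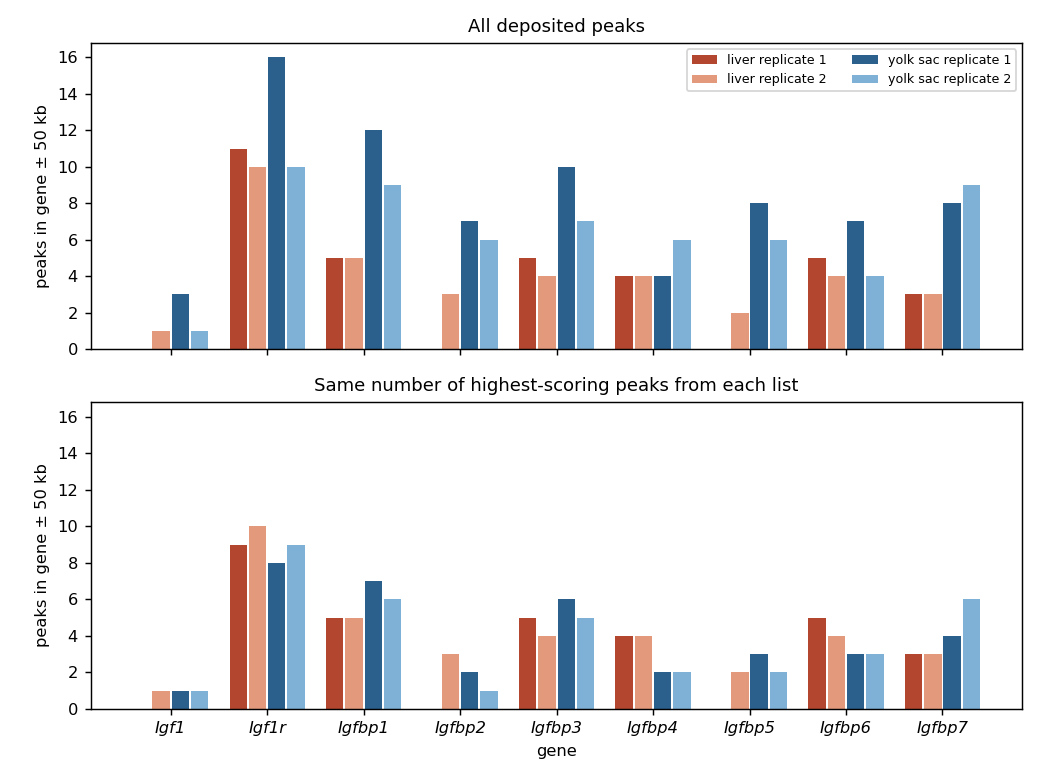
Bars give the number of peaks in each gene with 50 kb on either side, by library, from all deposited peaks (top) and from the 24333 highest-scoring peaks of each list (bottom). In the top panel the yolk sac bars stand above both liver bars at Igfbp1, Igfbp2, Igfbp3, Igfbp5 and Igfbp7, and in the bottom panel at Igfbp1 and Igfbp7.

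Inside the genes the difference was largest among the 9 members at Igfbp7, with 1 and 2 liver peaks against 6 and 5 yolk sac peaks. Igfbp5 held 0 and 0 against 2 and 2, and Igfbp2 0 and 0 against 1 and 2. At these 3 genes all yolk sac counts were higher, as at 32.5% of the 14389 protein-coding genes with a peak inside them. Liver was higher at none of the members and at 7.93% of those genes. Igf1r, the longest member at 281 kb, held 7 and 7 against 10 and 5 peaks. In lists of equal length Igfbp5 held 0 and 0 against 1 and 1, and yolk sac was higher at 13% of 13383 protein-coding genes. Igfbp7, with 1 and 2 against 2 and 4, and Igfbp2, with 0 and 0 against 1 and 0, then overlapped between tissues. Liver counts were then higher at Igf1r, with 6 and 7 against 4 and 4, and at Igfbp4, with 2 and 2 against 1 and 0, as at 18.4% of these genes.

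When peaks of the 4 lists that overlapped were merged, the 7 loci held 71 regions. Of these, 16 were called in all 4 libraries, 16 in both yolk sac libraries alone and 3 in both liver libraries alone. In 1 of the 16 shared regions, at the promoter of Tns2 upstream of Igfbp6, the peaks of the liver libraries did not overlap each other and were joined through the wider yolk sac peaks. The yolk-sac-only share of 22.5% stood beside 33% of all regions of the genome, and the liver-only share of 4.23% beside 6.62%. Another 26 came from a single library. Of the 71, 10 lay at member promoters, 13 at promoters of other genes and 48 elsewhere. The last held 14 of the 16 yolk-sac-only regions and all 3 liver-only regions. At equal list length the yolk-sac-only and liver-only regions of the loci numbered 7 and 5, and over the genome they were 16.8% and 15.6% of regions. The number of all regions in the loci at this setting was not kept, so the shares cannot be compared.

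The liver-only region with the highest percentiles lay 4.81 kb upstream of the Igfbp1 start (chr11:7192501-7193452, intergenic), at 82.3 and 64.1 in the liver lists, where the Igfbp1 promoter itself stood at 50.2 and 36.6. Next to it, a region 7.53 kb upstream (chr11:7189501-7191002) stood at 54.4 and 40.7 in yolk sac and at 12.0 in liver replicate 1, and was not called in the second liver library. The 4 yolk-sac-only regions of this locus lay between 11.8 and 45.5 kb upstream of Igfbp1. The strongest of them by percentile, at chr11:7178251-7180002, stood at 65.1 and 73.4 and was intergenic, 18.7 kb upstream. Those beyond 20 kb lay within Adcy1, the gene of an adenylyl cyclase, and that at 11.8 kb within Gm11985. At equal list length the region at 23.8 kb was lost from both yolk sac lists, and the others stayed yolk-sac-only. A promoter of Adcy1, 36.9 kb upstream of Igfbp1 and called throughout, stood at 49.0 and 44.3 in liver and 84.6 and 96.9 in yolk sac.

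At Igfbp7, the yolk-sac-only regions lay inside the gene, at 9.39, 20.8 and 23.6 kb from its start, with percentiles between 41.8 and 74.5. That at 20.8 kb lay at the promoter of another annotated gene, Gm34648. At equal list length all 3 were lost from yolk sac replicate 1, so none was then yolk-sac-only. Deeper in Igfbp7, at 49.8 kb (chr5:77357401-77359152, intronic), a region was called in all 4 libraries. It stood at 91.1 and 97.7 in yolk sac and at 8.64 and 5.80 in liver. Upstream, a region at 26.2 kb, at the start of the transcript Gm34728, stood at 92.8 and 93.4 in yolk sac and at 9.88 in liver replicate 1. These 2 regions and the promoter were the 3 with the highest percentiles of the locus in both yolk sac lists, and in liver none of them was above 37.5.

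At Igfbp2 and Igfbp5, the liver libraries shared no region, while 4 were yolk-sac-only. The first lay in an Igfbp5 intron, 4.13 kb from its start (chr1:72869901-72871602), at 90.4 and 83.1, above the Igfbp5 promoter in the same lists (49.4 and 33.5). A second, 40.0 kb upstream of Igfbp5 (chr1:72914501-72915302), stood at 91.4 and 63.3. The remaining 2 were at most at the 47.1 percentile, and neither was in a yolk sac list at equal list length.

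**Figure D4:**
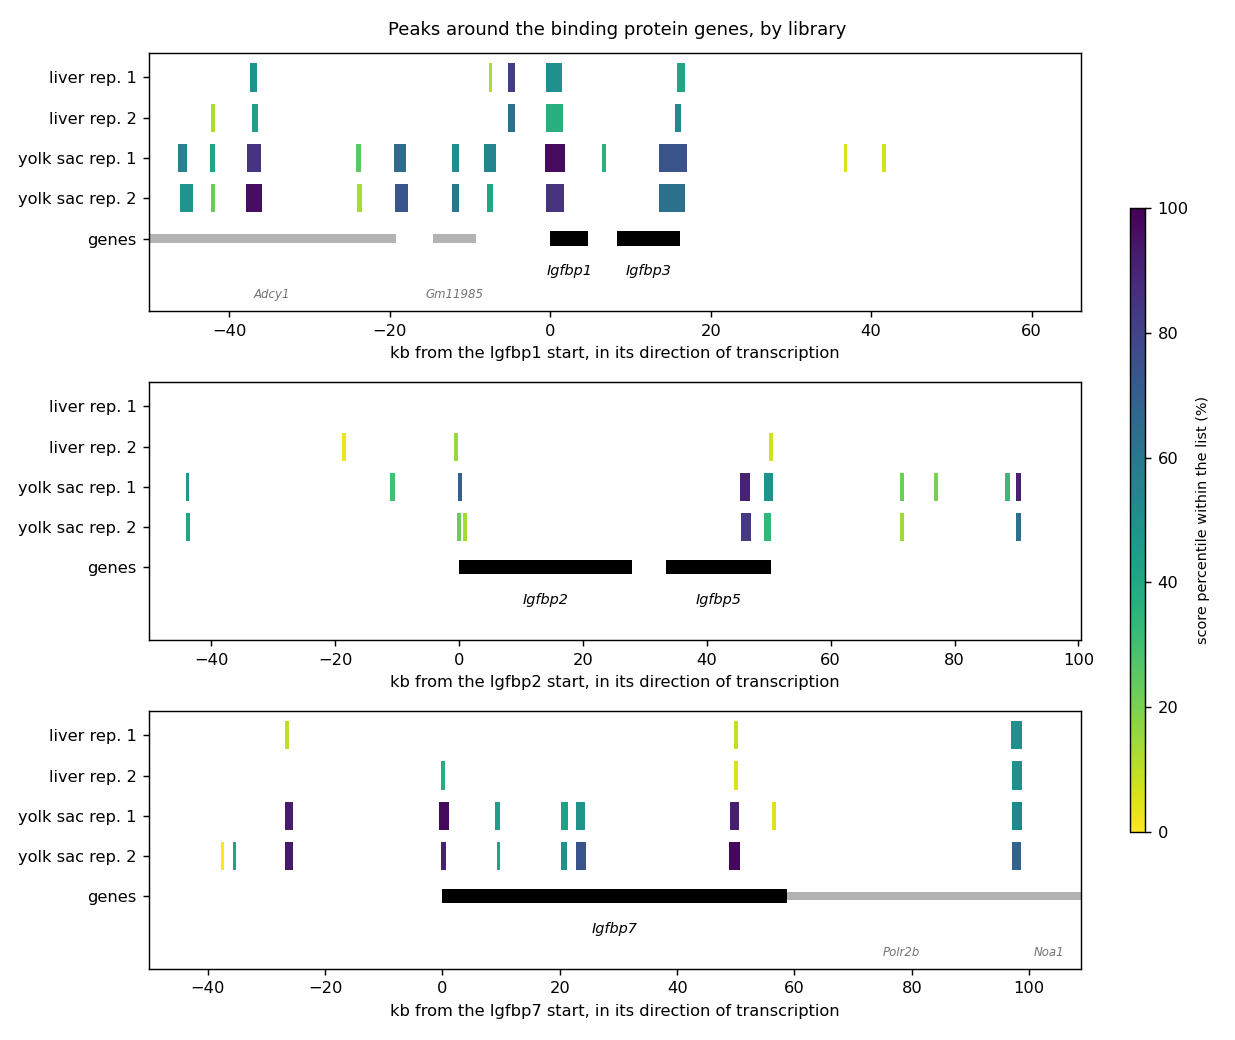
Peaks of each library (rows) are drawn along the Igfbp1-Igfbp3, Igfbp2-Igfbp5 and Igfbp7 loci in kb from the start of Igfbp1, Igfbp2 or Igfbp7, coloured by within-list score percentile. Black bars are the members and grey bars other protein-coding genes, and narrow peaks are drawn at a minimum width. The region 4.81 kb upstream of Igfbp1 is present in both liver rows and in neither yolk sac row, and the region 49.8 kb into Igfbp7 is at 91.1 and 97.7 in yolk sac and 8.64 and 5.80 in liver.

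Igf1r had 22 regions, of which 5 were shared by the 4 libraries, 4 yolk-sac-only and 2 liver-only. The first intronic region shared by all lay 20.8 kb from the start (chr7:67972901-67974402). It stood at 91.0 and 91.5 in liver and at 76.6 and 84.6 in yolk sac, above the Igf1r promoter in each list. A second, 177 kb from the start (chr7:68128151-68130652), stood at 83.6 and 50.8 in liver and 94.4 and 80.7 in yolk sac. Around 60 kb into the gene, regions of the tissues lay side by side. A liver-only region was at chr7:68011151-68011702, at 39.5 and 39.4, and a yolk-sac-only region at chr7:68013301-68013802, at 40.3 and 33.3. At equal list length this liver-only region was kept and the yolk-sac-only region was lost from both yolk sac lists. Of the 4 yolk-sac-only regions, only that 69.1 kb from the start then stayed so. The second liver-only region was at chr7:68115151-68115852. A region 41.6 kb upstream, called in all 4 libraries, stood at 26.2 and 38.6 in liver and 89.6 and 98.4 in yolk sac. Beyond the 3′ end, at the promoter of Pgpep1l, a region stood at 93.0 and 90.3 in yolk sac and at 0.364 in liver replicate 1, and was not called in the second liver library.

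**Figure D5:**
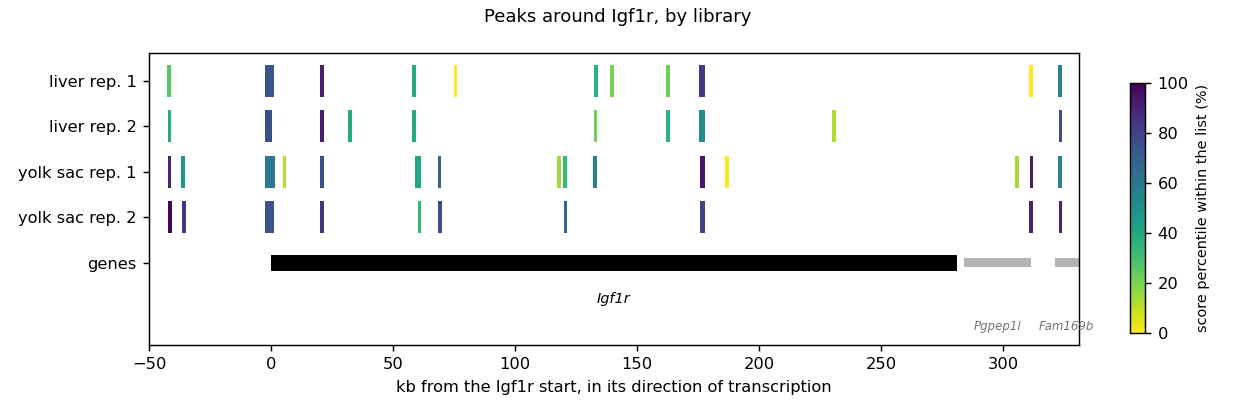
Peaks of each library (rows) are drawn along Igf1r and its 50 kb flanks in kb from the gene start, coloured by within-list score percentile, with narrow peaks drawn at a minimum width. The promoter, the region at 20.8 kb and the region at 177 kb are present in all 4 rows.

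Other genes of the pathway were taken from lists that hold 53 genes. Promoter peaks were found in all 4 libraries at 35 of them, in both yolk sac libraries alone at 4, in both liver libraries alone at 0 and in no library at 9. These shares may be read beside 53.8%, 5.25%, 1.01% and 34.2% of protein-coding genes. The yolk-sac-only genes were Htra1 and Htra3, serine proteases that cleave binding proteins, Stc1, a stanniocalcin, and Esm1, a proteoglycan of endothelial cells. In the yolk sac lists Htra3 stood at 88.7 and 89.2, Htra1 at 82.3 and 66.8, Esm1 at 46.0 and 52.4 and Stc1 at 36.7 and 9.77. With lists of equal length, 29 of the 53 genes were called in all libraries, 2 in yolk sac only (Htra1 and Htra3) and 10 in none, while Esm1 was left in yolk sac replicate 2 alone and Stc1 in no list. Among the 11 carrier, protease and protease inhibitor genes, 2 had a promoter peak in liver replicate 1, 6 in liver replicate 2 and 9 in each yolk sac list, where the shares over all protein-coding genes ran from 56.1% in liver replicate 1 to 63.8% in yolk sac replicate 1. They numbered 2, 6, 7 and 7 at equal list length, beside 55.9%, 57.9%, 53.2% and 56.6% of protein-coding genes. Of 22 genes that relay the signal inside the cell, 21 had a peak in each list, and at equal list length 21 and 21 in liver and 18 and 19 in yolk sac. All 5 genes in the list of Igf2 messenger-binding proteins and of the Igf2 and H19 locus had one in each full list. At equal list length they numbered 5 and 5 in liver and 4 and 5 in yolk sac. Igf2, the main ligand before birth and named here after its values were seen, stood at 29.1 and 35.9 in liver and 47.6 and 55.9 in yolk sac. Its peak was shared with the antisense gene Igf2os. At equal list length this peak was lost from yolk sac replicate 1 and kept in both liver lists and in yolk sac replicate 2.

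The calls of 5 pathway genes matched those of Igf1, Igfbp2, Igfbp5 and Igfbp7 in 4 of 4 libraries. They were Stc2, a stanniocalcin, the proteases Prss23, Adam12 and Mmp2, and the matrix-associated Ccn4. Their percentiles in liver replicate 2 were 25.5, 37.7, 66.9, 23.5 and 10.1, and in the yolk sac lists Prss23 was highest at 95.6 and 94.3. Stc2 was left in liver replicate 2 alone at equal list length, and the other 4 kept their calls. The 9 genes without a peak, as Igfbp6, were Insrr, Pappa, Pappa2, Igfbpl1, Ccn3, Ccn5, Ccn6, Htra4 and Irs4.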

How the data were processed

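One peak list per library was deposited, and the authors' deposited score of each peak, between 0.80 and 1.45, has no unit and served here to rank and filter the peaks of each list separately. The file names carry the word dREG. Per the submitters' processing notes, Bowtie2, bedtools and the build mm10 are named, while their roles, versions and filters are not given in the sources used here. Of the peaks, 33.5% to 55.8% per list lay within 500 bp of a GENCODE M21 start, and 11.1% to 14.6% after a 5 kb shift. Positions are 1-based. Peaks were assigned to genes by midpoint, to promoters by overlap with 500 bp either side of any start, and to merged regions by an overlap of 1 bp, using scipy 1.17.1, pandas 2.3.3 and numpy 2.4.6 under Python 3.11.15. The functions were checked on simulated lists. The depth of the libraries is unknown, which limits what a missing peak can show. The 9 members and the lists were chosen with earlier results of these data known. Named were all members, pathway genes called in 1 tissue only or with the calls of a member not called in all 4, and genes with a promoter in a member locus. Of the listed names, 6 were matched through RefSeq synonyms (GRCm38.p6) and Ahsp was not used. The promoter motifs were chosen after the promoter sequences were at hand. Alternatives were score filters, equal list length, other windows, flanks, overlaps and merge distances, each library left out, and the replicate number as a block.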

Additional observations from a re-analysis of the deposited data

How the results depend on the processing

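Groups of 2 libraries allow no threshold to be passed, so a difference counted as moved when it changed by more than the larger SD of the 2 tissues, a number of regions when it changed by more than 1.5 times, and a promoter call when any library changed. The yolk sac excess in promoter-called members (2) lay between 0 and 4 with each library left out, and was 3.5 in the higher-scoring 50% of each list and 0.5 at equal list length. The excess of 23.5 peaks in the member loci fell to 0.5 at equal list length. It was 11 with 20 kb flanks and 48.5 with 100 kb flanks, as fewer or more bases are then counted, and lay between 17 and 30 with each library left out. The 16 yolk-sac-only regions became 7 at equal list length, 10 and 36 with 20 and 100 kb flanks, and between 19 and 33 with each library left out, since a call then needs fewer lists. The 3 liver-only regions became 1 in the higher-scoring 50% of each list, 5 at equal list length and between 4 and 6 with each library left out. At equal list length the difference of yolk sac minus liver changed sign for the loci of Igf1r (2.5 to -1 peaks), Igfbp4 (1 to -2) and Igfbp6 (1 to -1.5), and for the share of libraries with an Igfbp5 promoter peak (0.5 to -0.5). With each library left out it lay between -0.5 and 5.5 for Igf1r and between -0.5 and 2.5 for Igfbp6, the lowest being without yolk sac replicate 1 for both. Equal list length was applied to gene bodies and to the pathway and marker lists after the data were seen. The difference changed sign for peaks inside Igf1r (0.5 to -2.5) and Igfbp4 (0.5 to -1.5) and for promoter calls of hepatocyte (0.5 to -5) and macrophage genes (1.5 to -2). The cause was not tested. Of the 33 alternative width differences, none moved or changed sign by this measure, but part of this was fixed in advance. A score filter or equal list length leaves the width of a kept best peak as it was. The replicate block leaves the difference unchanged. At Igfbp4 the larger SD of 1061 bp exceeded the width difference of 850 bp, so even a fall to 0 would not have counted as moved. In the higher-scoring 50% of each list, only Igf1r kept a promoter peak in every library and could be compared. The replicate numbers gave no evidence of pairing: across 18226 genes, the differences between replicates 1 and 2 in liver and in yolk sac had r = -0.0119. With the replicate number as a block the differences stayed at 2 members and 23.5 peaks, and the smallest p that the exact permutation within blocks can give is 0.5. The unknown depth and the list length limit every count.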
